A study of Homo sapiens with 16 samples.

Results

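The nuclear genes for the proteins of the mitochondrial ribosome were described in LNCaP cells, an androgen-responsive line from a lymph node metastasis of a human prostate carcinoma. Members were all genes whose symbol is MRPL or MRPS followed by a number and at most 1 letter from A to C, with a raw count of 1000 or more when summed over 16 RNA libraries. Of 78 such symbols, 76 were members, among 60252 genes in the count table. MRPL32 was left out by name. MRPS24 fell short of the threshold with a summed count of 815, whereas MRPL53 lay just inside it with 1806. The next lowest was MRPL38 with 8630, and the highest was MRPL24 with 340195. Members were thus selected on their summed count, which is given as a description. All 76 passed the filter on low counts that preceded testing.

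Libraries of total RNA were made with a strand-specific kit for 8 groups of 2 samples. In the first 4 groups the cells received AT7519, an inhibitor of cyclin-dependent kinases, at 0.5 μM for 4 hours before harvest. The arms within them were siOGT1 and siOGT2, 2 siRNAs against OGT, the enzyme that attaches O-GlcNAc to nuclear and cytosolic proteins, OSMI2, a small-molecule OGT inhibitor, and the control siRNA Scr. The other 4 groups held the same arms with the solvent DMSO in place of AT7519. Knockdown lasted 48 hours. The labels enter OSMI2 in the siRNA field. Neither its dose and duration nor any siRNA given beside it is stated there. The labels do not call the 2 samples of a group separate cultures. Tests here therefore rest on a spread between samples that may be only technical.

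Mitochondrial ribosomes translate the few proteins encoded in mitochondrial DNA, all of them core subunits of the respiratory chain and the ATP synthase. Their RNA is made inside the organelle, but every protein of the particle is encoded in the nucleus, translated in the cytosol and imported. Some of these proteins have counterparts in bacterial ribosomes, and others were acquired by mitochondria. The large subunit (MRPL genes) forms peptide bonds and holds the exit tunnel, and the small subunit (MRPS genes) binds the mRNA and decodes it.

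The stretch from 180 bases before to 30 bases after the annotated start is printed for 4 members on which the results turn: MRPL51, with one of the highest levels; MRPL38, with the highest rise under AT7519; MRPS17, the member that fell with AT7519 in every arm; and MRPL54, which was lower with both OGT siRNAs. Sequences are from RefSeq on GRCh38.p14, written 5′ to 3′ on the gene's strand. Capitals mark the letters CCGGAAG or their reverse complement, the core bound by ETS-family factors such as GABP, and AAGATGGCG, the core bound by YY1.
MRPL51 (chr12:6493233-6493442, minus strand): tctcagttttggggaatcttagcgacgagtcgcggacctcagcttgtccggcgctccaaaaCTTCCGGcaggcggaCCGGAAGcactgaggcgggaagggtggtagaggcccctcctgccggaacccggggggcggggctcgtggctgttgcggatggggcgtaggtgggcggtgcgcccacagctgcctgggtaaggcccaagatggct
MRPL38 (chr17:75904855-75905064, minus strand): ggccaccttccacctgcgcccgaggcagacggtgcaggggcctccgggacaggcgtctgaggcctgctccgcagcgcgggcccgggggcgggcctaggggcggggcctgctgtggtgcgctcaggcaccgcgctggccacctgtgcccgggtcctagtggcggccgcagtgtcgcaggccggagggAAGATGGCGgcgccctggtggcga
MRPS17 (chr7:55951697-55951906, plus strand): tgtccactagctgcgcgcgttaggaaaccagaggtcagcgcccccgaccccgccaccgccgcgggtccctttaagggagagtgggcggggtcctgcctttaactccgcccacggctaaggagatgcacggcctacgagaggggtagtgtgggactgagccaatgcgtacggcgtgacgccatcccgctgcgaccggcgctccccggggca
MRPL54 (chr19:3762502-3762711, plus strand): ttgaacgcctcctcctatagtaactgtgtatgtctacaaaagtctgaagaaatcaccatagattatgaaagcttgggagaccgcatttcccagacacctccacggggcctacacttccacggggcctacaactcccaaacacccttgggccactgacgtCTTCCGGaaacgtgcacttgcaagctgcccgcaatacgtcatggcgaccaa

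MRPL51 held the ETS-type letters in both orientations, MRPL54 held them once, and the YY1-type letters of MRPL38 lay just after its start. The MRPS17 stretch held none of these. A window from 250 bases before to 50 after the start was found for 67 of the 76 members. CCGGAAG on either strand was in 30 of the 67 (44.8%), against 16.5% of 15843 protein-coding genes. AAGATGGCG was in 11 (16.4%), against 3.21%, and 4 members had both. MRPL38 was among these, with its ETS-type letters inside the window but outside the printed stretch. The core bound by NRF1 was in 10 (14.9%), against 13.9%, and CACGTG, an E-box, in 9 (13.4%), against 10.9%. TATAAA was in 3 (4.48%), against 12.4%. These matches are descriptions of letters in a window and not of bound sites. Under AT7519 in Scr cells the median log2 fold change was 0.39 for members with CCGGAAG, as for those without it. It was 0.23 with AAGATGGCG and 0.40 without, 0.21 with the NRF1 core and 0.42 without, 0.32 with CACGTG and 0.40 without, and 0.56 with TATAAA and 0.39 without. None of these differences was tested. The starts of MRPL46 and MRPS11 are 320 bases apart and point away from each other.

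**Figure D1:**
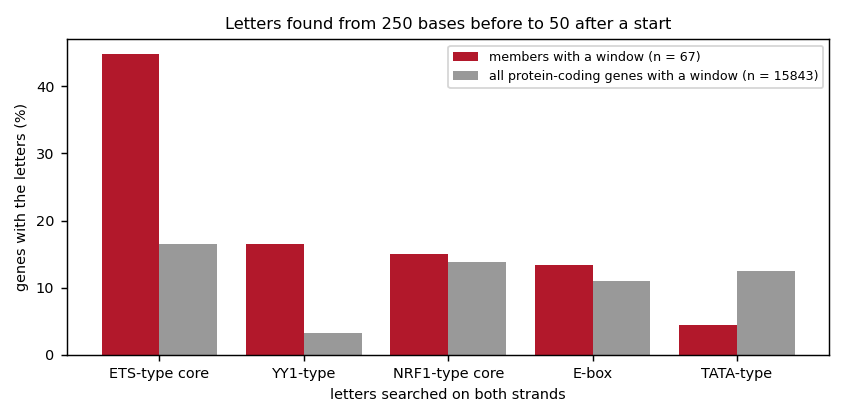
Share of genes (%) whose promoter window holds each set of letters, for 67 members and 15843 protein-coding genes. The ETS-type and YY1-type letters are in 44.8% and 16.4% of members, against 16.5% and 3.21% of all genes.

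Total counts per library were 40216911 to 147019364. Replicates of a group correlated across genes with r between 0.983 and 0.991. OGT had 20.7 and 14.6 CPM in siOGT1 samples and 36.0 and 29.8 CPM in siOGT2 samples under DMSO, against 274 and 263 CPM in Scr samples, where CPM is the usual depth-scaled count on TMM-scaled library sizes. All 9 luminal prostate markers were expressed, with a summed level of 4312 to 5420 CPM over the 16 libraries. The 3 basal and 3 leukocyte markers summed to at most 1.08 CPM, the 3 neuroendocrine markers to 2.76 to 7.12 CPM, and the 3 stromal markers to 11.6 to 41.7 CPM, nearly all of it COL1A1. The stromal sum was 29.1 and 33.9 CPM with AT7519, against 24.3 and 22.2 CPM with DMSO in Scr cells, and its part in the results was not tested. The table lists 37 genes of mitochondrial DNA, all at a count of 0, so the ribosomal RNA of the particle and the mRNAs it translates were not measured.

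The 76 members together held 0.455% to 0.785% of counts on the scaled library sizes. Per kilobase of exon, levels in Scr cells under DMSO ran from 1.08 CPM for MRPL53 to 138 CPM for MRPL24, with a median of 25.6. The quartiles were 14.6 and 44.4 CPM per kilobase. MRPL51, at 137 CPM per kilobase, and MRPS21, at 99.2, followed MRPL24. Exons of 39 members overlapped exons of another gene in GENCODE v29, 15 of them on the same strand. Median level was 17.4 CPM per kilobase for members with such overlap and 32.1 for those without. The handling of reads in shared bases is not stated, so values of overlapped members are uncertain. The large subunit accounts for 50 members and the small subunit for 25. The remaining member, MRPS36, is now known as KGD4, a subunit of the 2-oxoglutarate dehydrogenase complex.

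The first question was how the members responded to AT7519 in control cells. Of the 76 members, 54 rose, 1 fell and 21 did not pass the test (edgeR quasi-likelihood test, Benjamini-Hochberg adjusted p under 0.05). Among all 23830 tested genes, 21.8% rose and 24.6% fell. The median log2 fold change was 0.39 over the members and -0.05 over all tested genes. It was 0.03 over the 10152 tested genes averaging 8 CPM or more, a background nearer to the members in level. Both AT7519 samples exceeded both DMSO samples for 63 members and lay under both for 3. The shares of all tested genes with groups apart in this way were not counted. The rises were shallow, and MRPL38 was the only member raised by more than 2-fold.

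Summed over the 76 members, the level was 7688 and 7213 CPM in Scr samples with AT7519, against 5495 and 5807 CPM with DMSO. In siOGT1 cells it was 7827 and 7545 CPM with AT7519, against 5734 and 6115 CPM with DMSO. In siOGT2 cells it was 7847 and 7019 CPM with AT7519, against 5379 and 5774 CPM with DMSO. Every AT7519 sample of these 3 arms stood above every DMSO sample. OSMI2 cells had 6153 and 5908 CPM with AT7519, against 4733 and 4551 CPM with DMSO, and these were the lowest samples of each agent. CPM values are shares of a library and do not tell RNA per cell from the number of cells.

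**Figure D2:**
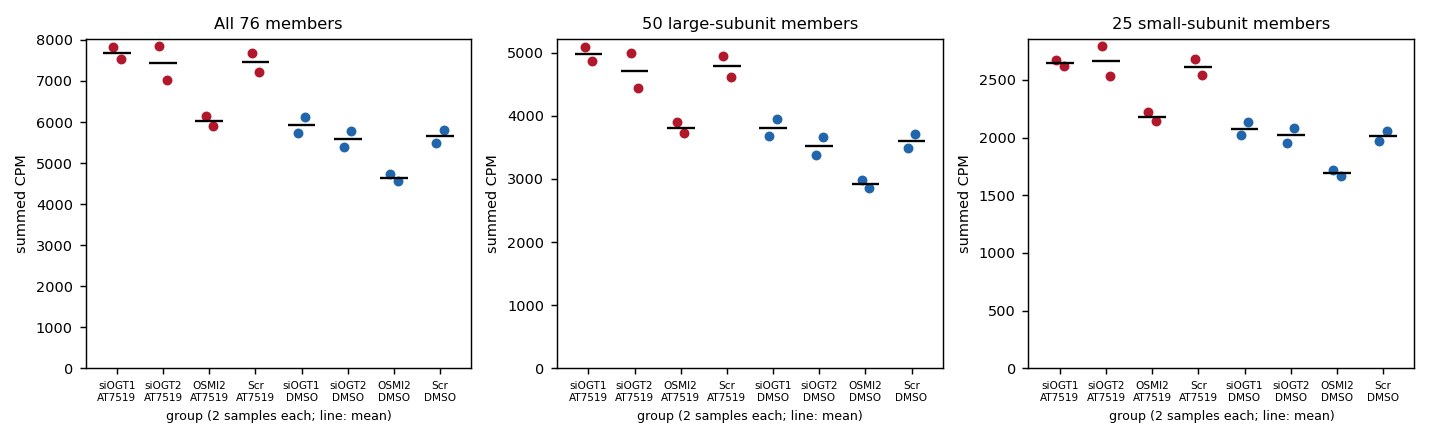
Summed CPM per sample of all 76 members, of 50 large-subunit members and of 25 small-subunit members in the 8 groups (points: samples; lines: group means; red: AT7519; blue: DMSO). For all members, AT7519 samples of the siRNA arms lie between 7019 and 7847 and their DMSO samples between 5379 and 6115, and OSMI2 samples are lowest within each agent.

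Scaling sets where these values sit relative to 0. With library sizes alone, without TMM, the median of all tested genes moved to -0.30 in Scr and that of the members to 0.15, so that 28 members rose and 8 fell. Upper-quartile scaling gave 66 rises and 1 fall. Over all genes the split of rises and falls was 5206 and 5866 with TMM, 3024 and 8207 with library sizes alone, and 6714 and 4730 with upper quartiles. Relative to all tested genes, the median of the members was 0.44 higher under each of the 4 scalings. Scaling moves all genes of a comparison by nearly the same amount, so this gap could hardly change and does not test the scaling.

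Among the 50 large-subunit members, 37 rose and none fell in Scr cells. MRPL38, a mitochondria-specific protein of the central protuberance, had 11.3 and 15.0 CPM with AT7519, against 4.48 and 3.82 CPM with DMSO (log2 fold change 1.66 ± 0.17, adjusted p = 1.84e-07). Over the 4 arms, all 8 AT7519 samples lay above all 8 DMSO samples. Of its exonic bases, 41.1% overlap other gene models, most of them an unnamed gene on the same strand. MRPL55, the counterpart of bacterial L31, had 90.2 and 97.1 CPM with AT7519, against 53.4 and 54.8 CPM with DMSO (log2 fold change 0.79 ± 0.08, adjusted p = 1.95e-07). MRPL23 lies at the exit of the peptide tunnel, and it had 90.7 and 76.6 CPM with AT7519, against 52.3 and 52.5 CPM with DMSO (log2 fold change 0.67 ± 0.09, adjusted p = 4.98e-06). The groups did not overlap for either gene. MRPL46, another mitochondria-specific protein of the central protuberance, had 16.7 and 18.8 CPM with AT7519, against 11.5 and 10.7 CPM with DMSO (log2 fold change 0.68 ± 0.12, adjusted p = 0.000135). MRPS11, whose start lies next to that of MRPL46, had 48.2 and 49.8 CPM with AT7519, against 37.3 and 37.4 CPM with DMSO (log2 fold change 0.39 ± 0.09, adjusted p = 0.00118). Both genes of this head-to-head pair rose. With library sizes alone MRPS11 lost its call (0.15 with an adjusted p of 0.205).

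MRPL9, the counterpart of bacterial L9, had 55.5 and 60.9 CPM with AT7519, against 36.0 and 37.7 CPM with DMSO (log2 fold change 0.66 ± 0.09, adjusted p = 4.11e-06). MRPL24, also at the tunnel exit and the most abundant member, had 377 and 350.0 CPM with AT7519, against 227 and 241 CPM with DMSO (log2 fold change 0.63 ± 0.08, adjusted p = 4.01e-06). MRPL51, whose promoter is printed above, had 326 and 298 CPM with AT7519, against 209 and 216 CPM with DMSO (log2 fold change 0.55 ± 0.08, adjusted p = 1.73e-05). None of these 3 genes had overlapping groups. MRPL41, a mitochondria-specific protein, had 126 and 72.7 CPM with AT7519, against 68.8 and 43.6 CPM with DMSO (log2 fold change 0.81 ± 0.25, adjusted p = 0.0227). Its replicates were far apart, and the call was lost without Scr replicate 1 with AT7519 (0.40 with an adjusted p of 0.153) and without Scr replicate 2 with DMSO (0.52 with an adjusted p of 0.143). It was also lost with library sizes alone (0.56 with an adjusted p of 0.0849), without the low-count filter (0.82 with an adjusted p of 0.068) and in a fit of the 2 groups alone (0.84 with an adjusted p of 0.161).

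**Figure D3:**
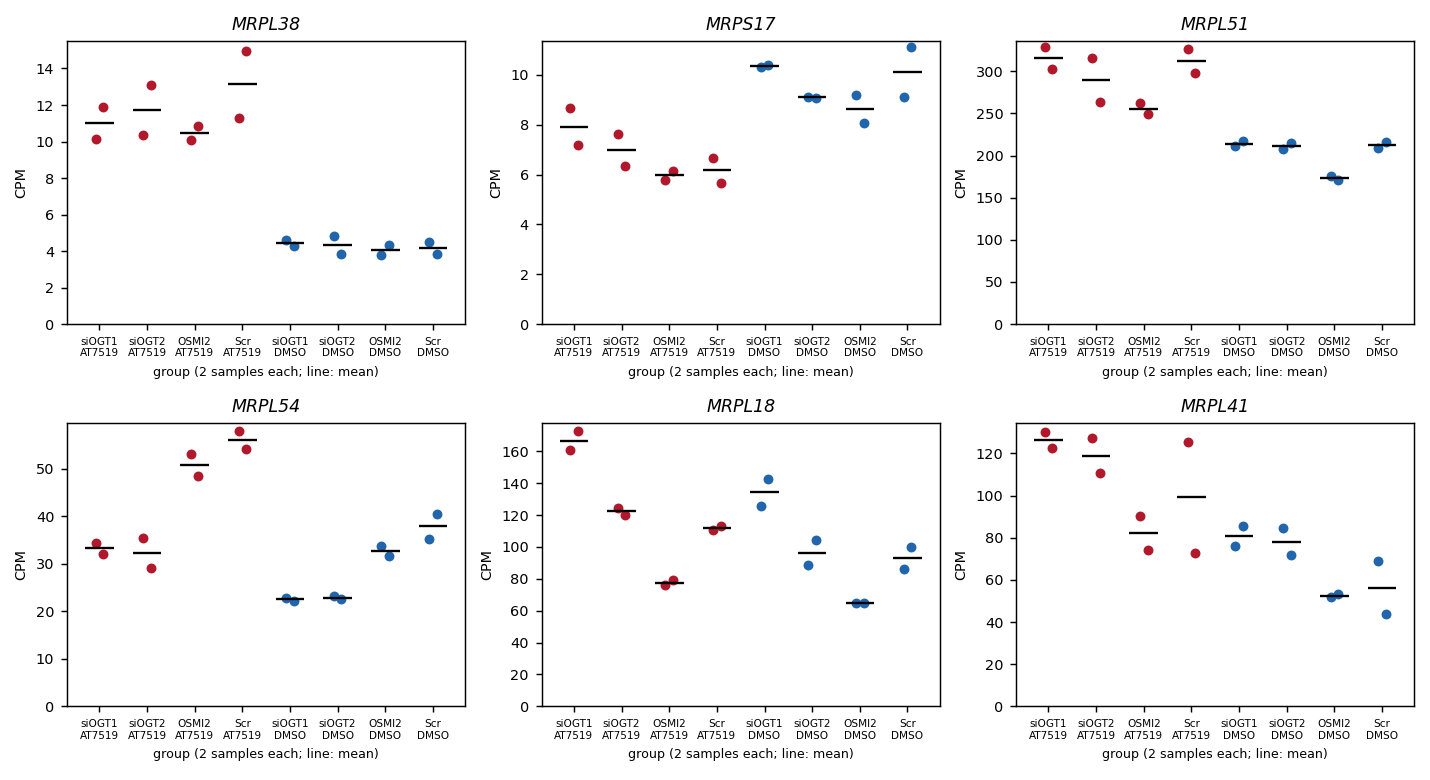
CPM per sample of 6 members in the 8 groups (points: samples; lines: group means; red: AT7519; blue: DMSO). MRPL38 is higher and MRPS17 lower with AT7519 in every arm, MRPL54 is lowest in siOGT1 and siOGT2 cells within each agent, and MRPL18 is highest in siOGT1 cells and lowest in OSMI2 cells within each agent.

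Of the 25 small-subunit members, 16 rose and 1 fell in Scr cells. MRPS34, a mitochondria-specific protein, had 135 and 109.5 CPM with AT7519, against 75.1 and 71.5 CPM with DMSO (log2 fold change 0.74 ± 0.09, adjusted p = 1.35e-06). MRPS15, the counterpart of bacterial S15, had 159 and 169 CPM with AT7519, against 96.9 and 102 CPM with DMSO (log2 fold change 0.73 ± 0.07, adjusted p = 1.26e-07). Samples of the 2 agents did not overlap for either gene. MRPS17, the counterpart of bacterial S17, fell: it had 6.66 and 5.67 CPM with AT7519, against 9.10 and 11.1 CPM with DMSO (log2 fold change -0.71 ± 0.15, adjusted p = 0.000677). It is a low-level member, and 27.0% of its exonic bases overlap NIPSNAP2 or an unnamed gene on the same strand. The 3 paralogs that share descent with bacterial S18 did not pass the test with TMM scaling. MRPS18B had 103 and 93.4 CPM with AT7519, against 89.5 and 98.0 CPM with DMSO, and these overlap. MRPS18A, now placed in the large subunit, had 22.4 and 21.2 CPM with AT7519, against 19.0 and 21.2 CPM with DMSO (log2 difference 0.12 ± 0.11). MRPS18C had 39.7 and 34.5 CPM with AT7519, against 31.4 and 33.2 CPM with DMSO (log2 difference 0.20 ± 0.12). Scaling moved all 3 paralogs. With library sizes alone their values turned negative, at -0.13 for MRPS18A, -0.18 for MRPS18B and -0.05 for MRPS18C. With upper-quartile scaling each was called higher, at 0.27 with an adjusted p of 0.0428 for MRPS18A, 0.22 with an adjusted p of 0.0321 for MRPS18B and 0.35 with an adjusted p of 0.0152 for MRPS18C. With the replicate number as a block within each agent, MRPS18C was also called higher (0.36 with an adjusted p of 0.0012).

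Members with and without a bacterial counterpart both rose in most cases. In the large subunit 23 of 29 members with a counterpart rose, with a median of 0.42, and 14 of 21 mitochondria-specific members rose, with a median of 0.39. In the small subunit 10 of 15 with a counterpart rose and 1 fell, and 6 of 10 mitochondria-specific members rose. By exon overlap, 25 of 37 members without it rose and none fell, and 29 of 39 with it rose and 1 fell. Across the 76 members, the log2 fold change in Scr had a Spearman rho of -0.07 with gene span, 0.05 with exonic length and 0.08 with the level per kilobase. These are descriptions over genes measured in the same 4 libraries.

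The same comparison within each OGT arm asked how the members responded with OGT knocked down or inhibited. In siOGT1 cells 54 members rose and 1 fell, beside 19.4% and 22.0% of all tested genes, with a median of 0.36. In siOGT2 cells 56 rose and 1 fell, beside 22.2% and 22.8%, with a median of 0.42. In OSMI2 cells 50 rose and 5 fell, beside 23.6% in each direction, with a median of 0.36. With library sizes alone the rises numbered 21, 30 and 26 in these 3 arms and the falls 6, 5 and 11. Over all tested genes the rises were then 2573, 2842 and 3163 and the falls 7501, 8067 and 7651. The median of the members was above that of all tested genes, by 0.41 for siOGT1, 0.45 to 0.46 for siOGT2 and 0.34 for OSMI2. As in Scr cells, scaling could hardly change these gaps. Over tested genes averaging 8 CPM or more the medians were 0.04, 0.07 and 0.05 in these 3 arms.

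**Figure D4:**
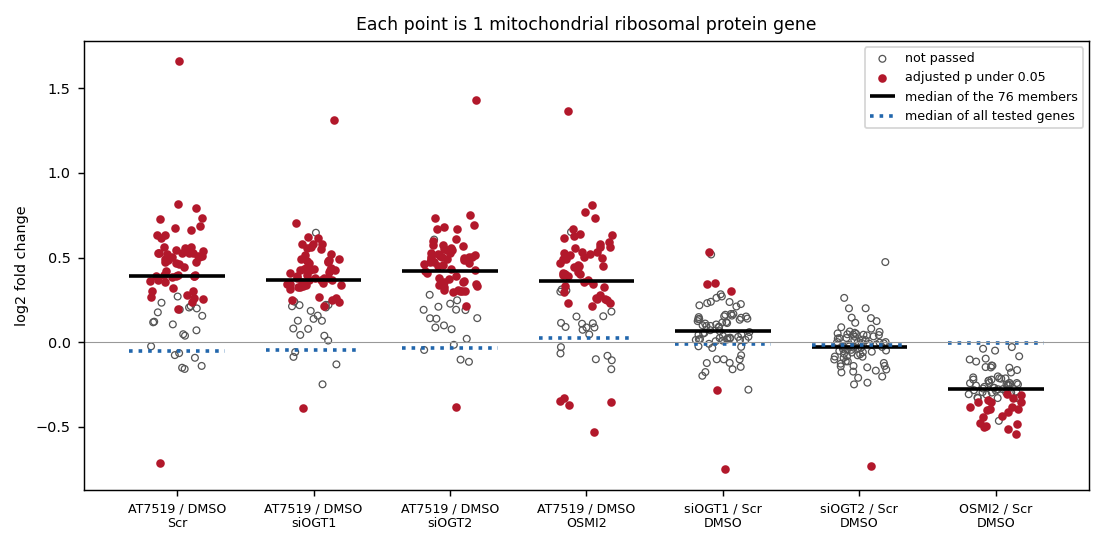
Log2 fold change of each of the 76 members in 7 comparisons (filled: adjusted p under 0.05; black line: median of the members; dotted line: median of all tested genes). The members' median is 0.36 to 0.42 for AT7519 in the 4 arms, 0.07 for siOGT1, -0.03 for siOGT2 and -0.28 for OSMI2 against Scr under DMSO.

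A rise was called in all 4 arms for 47 members, in 1 to 3 arms for 14 and in no arm for 15. The share of all tested genes that rose in all 4 arms was not counted. It cannot exceed the 19.4% that rose in siOGT1 cells. No member rose in one arm and fell in another. MRPL38 was the member with the highest value in each arm, at 1.31 ± 0.17 (SE) in siOGT1, 1.43 ± 0.18 in siOGT2 and 1.37 ± 0.18 in OSMI2 cells, with adjusted p of 4.15e-06, 1.85e-06 and 2.22e-06 (edgeR). In siOGT1 cells MRPL23 (0.70 ± 0.09) and MRPL24 (0.62 ± 0.08) came next. In siOGT2 cells they were MRPS15 (0.75 ± 0.07) and MRPL9 (0.73 ± 0.09). In OSMI2 cells they were MRPL23 (0.81 ± 0.09) and MRPS15 (0.77 ± 0.07). All 6 of these values passed the test. Those with no call for a rise in any arm were MRPL2, MRPL10, MRPL15, MRPL36, MRPL45, MRPL49, MRPL50, MRPL53, MRPL58, MRPS9, MRPS17, MRPS18A, MRPS18C, MRPS26 and MRPS31.

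MRPS17 was the only member that fell with AT7519 in every arm. It had 8.66 and 7.18 CPM with AT7519 in siOGT1 cells, against 10.3 and 10.4 CPM with DMSO (log2 fold change -0.39 ± 0.15, adjusted p = 0.0441). In siOGT2 cells it had 7.62 and 6.35 CPM with AT7519, against 9.12 and 9.07 CPM with DMSO (log2 fold change -0.38 ± 0.15, adjusted p = 0.0496). In OSMI2 cells it had 5.77 and 6.16 CPM with AT7519, against 9.19 and 8.05 CPM with DMSO (log2 fold change -0.53 ± 0.16, adjusted p = 0.00778). No AT7519 sample reached a DMSO sample of its own arm. Both siRNA-arm calls were at the edge of the threshold and were lost without most single libraries, those of other arms included. The siOGT1 value was -0.24 with an adjusted p of 0.36 without siOGT1 replicate 2 with AT7519, and the siOGT2 value was -0.25 with an adjusted p of 0.303 without siOGT2 replicate 2 with AT7519. The OSMI2 value was -0.44 with an adjusted p of 0.0771 without OSMI2 replicate 1 with DMSO. The siOGT1 and siOGT2 calls were also lost with RLE or upper-quartile scaling, without the low-count filter, with DESeq2 and with a replicate block within each agent.

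The other 4 falls were in OSMI2 cells. MRPL10, at the base of the stalk, had 35.8 and 27.6 CPM with AT7519, against 44.2 and 38.0 CPM with DMSO (log2 fold change -0.37 ± 0.12, adjusted p = 0.017). MRPS31 had 14.6 and 16.3 CPM with AT7519, against 19.5 and 19.9 CPM with DMSO (log2 fold change -0.36 ± 0.11, adjusted p = 0.0105). MRPL2, a core protein of the large subunit, and MRPL49, a mitochondria-specific one, had log2 fold changes of -0.35 ± 0.10 and -0.33 ± 0.07 (adjusted p = 0.00732 and 0.000979, edgeR), and were chosen after their values were seen. In all 4 genes both AT7519 samples lay under both DMSO samples. The MRPL10 value was -0.22 with an adjusted p of 0.206 without OSMI2 replicate 2 with AT7519 and -0.26 with an adjusted p of 0.177 without OSMI2 replicate 1 with DMSO. The MRPS31 value was -0.33 with an adjusted p of 0.0607 without OSMI2 replicate 1 with AT7519 and -0.35 with an adjusted p of 0.0552 without OSMI2 replicate 2 with DMSO. The MRPL2 value was -0.26 with an adjusted p of 0.0936 without OSMI2 replicate 2 with AT7519. Upper-quartile scaling left 0 falls in OSMI2 cells. In the other arms these 4 genes did not pass the test, and MRPL10, MRPS31 and MRPL2 had values below 0 in each of them. In Scr, siOGT1 and siOGT2 cells the log2 differences were -0.14, -0.13 and -0.12 for MRPL10, -0.16, -0.09 and -0.02 for MRPS31, -0.06, -0.06 and -0.10 for MRPL2, and -0.08, 0.04 and 0.02 for MRPL49.

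Whether the response to AT7519 differed between an OGT arm and Scr was tested as an interaction. No member passed in any of the 3 tests, in edgeR or in DESeq2, beside 0.0504% of all genes for siOGT1, 0.00% for siOGT2 and 0.747% for OSMI2. At an unadjusted p under 0.05 there were 0, 0 and 5 members. The share of all tested genes at that unadjusted p was not counted, so these numbers have no background beside them. The 5 were MRPL55, MRPL44, MRPL46, MRPL49 and MRPL17, all with a lower AT7519 value in OSMI2 cells than in Scr cells. Of these, MRPL46 had the lowest difference (-0.38 ± 0.18, adjusted p = 0.542, edgeR) and MRPL55 the smallest p (-0.33 ± 0.12, adjusted p = 0.296, edgeR). MRPL46 had 11.9 and 11.1 CPM with AT7519 in OSMI2 cells, against 9.74 and 9.01 CPM with DMSO. MRPL44 had 32.3 and 31.8 CPM with AT7519 in OSMI2 cells, against 33.9 and 33.9 CPM with DMSO, while in Scr cells it had 52.9 and 47.4 CPM with AT7519, against 40.7 and 44.4 CPM with DMSO. A difference that misses the threshold does not show that the responses were alike.

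**Figure D5:**
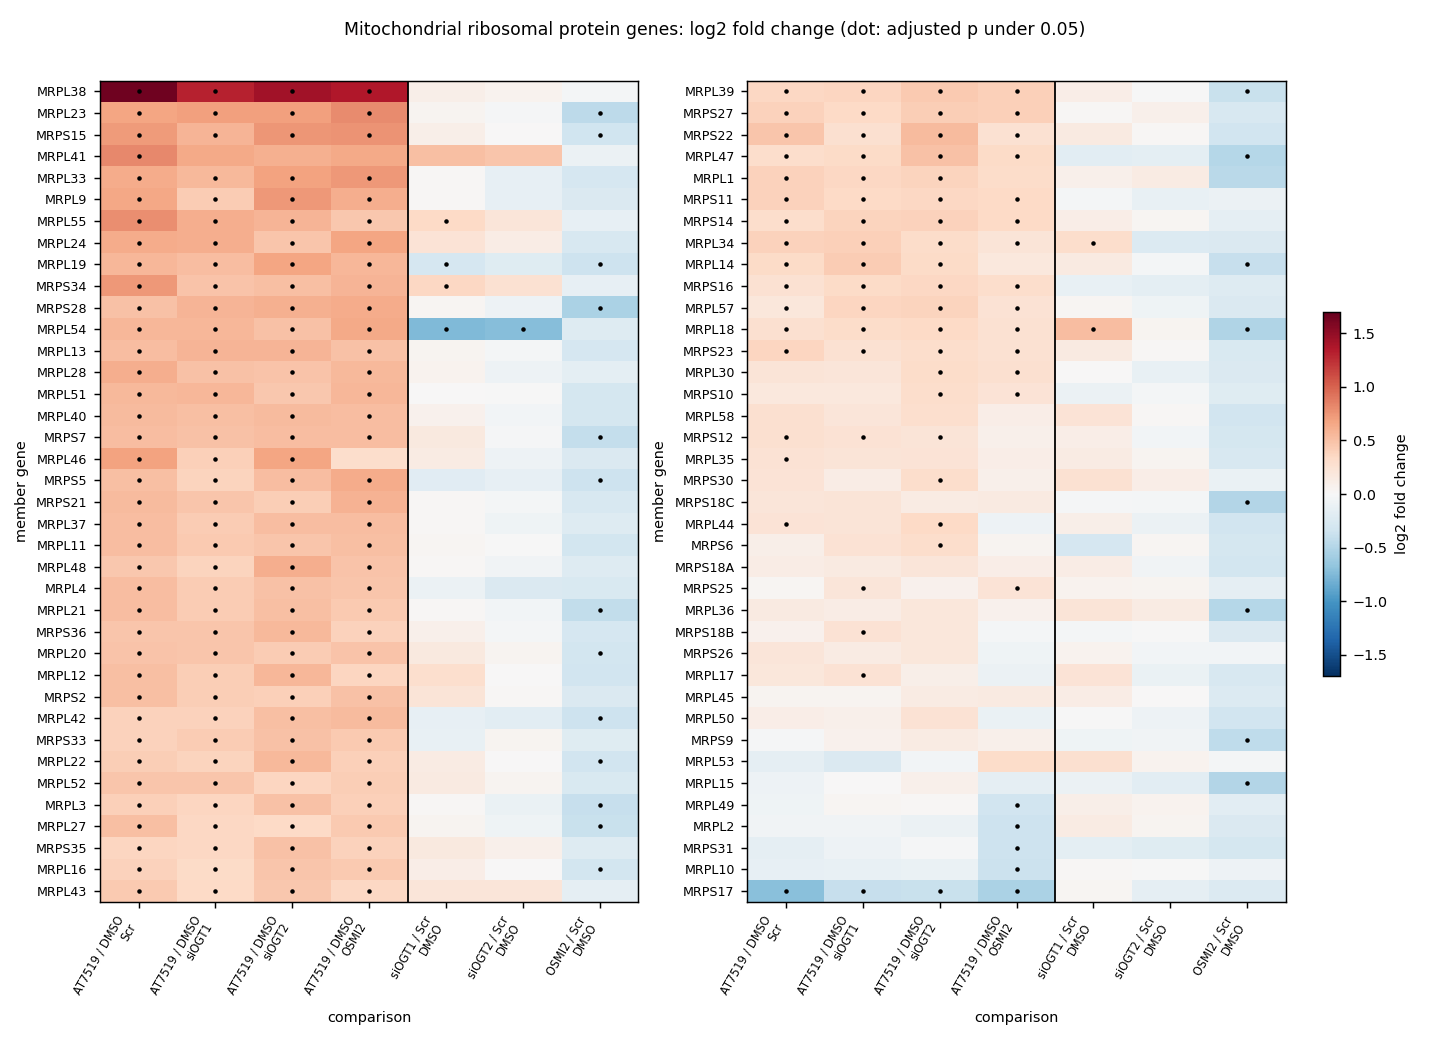
Log2 fold change of the 76 members (rows, ordered by the mean AT7519 value over the arms) in 7 comparisons (columns; dot: adjusted p under 0.05). AT7519 columns are positive for most members in all 4 arms, with MRPS17, MRPL10, MRPL2 and MRPS31 negative in each, and the OSMI2 against Scr column is negative throughout.

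Under DMSO, the OGT arms were compared with Scr to see whether OGT loss alone moved the members. With siOGT1, 4 members rose and 2 fell, beside 4.89% and 5.51% of all tested genes. With siOGT2, 0 rose and 1 fell, beside 1.92% and 2.38%. The members' medians were 0.07 and -0.03. With the replicate number as a block within each agent there were 9 rises and 4 falls for siOGT1, and 1 rise and 3 falls for siOGT2. Calls over all tested genes were not counted in that fit, and the shares above do not apply to it.

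MRPL54, a mitochondria-specific protein of the large subunit, fell with both siRNAs. It had 22.8 and 22.2 CPM with siOGT1 and 23.1 and 22.6 CPM with siOGT2, against 35.2 and 40.5 CPM with Scr under DMSO. The log2 fold changes were -0.75 ± 0.10 (adjusted p = 0.000112, edgeR) and -0.73 ± 0.11 (adjusted p = 0.000486, edgeR), against the same 2 Scr samples. Every siRNA sample lay under both Scr samples, and both calls held with each library left out in turn. With AT7519 the order was the same: 34.4 and 32.0 CPM with siOGT1 and 35.3 and 29.0 CPM with siOGT2, against 57.9 and 54.1 CPM with Scr. In OSMI2 cells MRPL54 had 33.7 and 31.6 CPM with DMSO (log2 difference from Scr -0.21 ± 0.10, adjusted p = 0.339, edgeR). Against each siRNA, in comparisons added after values were seen, MRPL54 was the only member called higher in OSMI2 cells, by 0.54 ± 0.10 against siOGT1 (adjusted p = 0.0013, edgeR) and 0.51 ± 0.11 against siOGT2 (adjusted p = 0.00553, edgeR). The second of these was 0.47 with an adjusted p of 0.0682 without OSMI2 replicate 1 and 0.49 with an adjusted p of 0.0939 without siOGT2 replicate 2, both with DMSO. MRPL54 rose with AT7519 in every arm, by 0.49 to 0.64.

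MRPL18, the counterpart of bacterial L18 that binds 5S rRNA there, differed between the arms. It had 126 and 143 CPM with siOGT1, 88.7 and 104 CPM with siOGT2 and 65.1 and 65.1 CPM with OSMI2, against 86.2 and 99.8 CPM with Scr under DMSO. The siOGT1 samples were above and the OSMI2 samples below both Scr samples, while siOGT2 and Scr overlapped. It rose with siOGT1 (log2 fold change 0.53 ± 0.09, adjusted p = 0.000737), a call that held with each library left out, and fell with OSMI2 (log2 fold change -0.52 ± 0.09, adjusted p = 0.00456). The OSMI2 value was -0.52 with an adjusted p of 0.0783 without OSMI2 replicate 2 and -0.41 with an adjusted p of 0.164 without Scr replicate 2, both with DMSO. It was also the member with the largest difference between OSMI2 and siOGT1 cells, at -1.04 ± 0.09 (adjusted p = 5.43e-07, edgeR).

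The remaining siOGT1 calls were smaller. MRPS34 had 88.4 and 98.5 CPM with siOGT1, against 75.1 and 71.5 CPM with Scr (log2 fold change 0.35 ± 0.09, adjusted p = 0.0152). MRPL55 had 67.1 and 70.4 CPM with siOGT1, against 53.4 and 54.8 CPM with Scr (log2 fold change 0.34 ± 0.08, adjusted p = 0.0103). MRPL34, the counterpart of bacterial L34, had 60.1 and 67.9 CPM with siOGT1, against 50.3 and 53.6 CPM with Scr (log2 fold change 0.30 ± 0.08, adjusted p = 0.0234). Both siOGT1 samples were above both Scr samples for all 3 genes. MRPL19, the counterpart of bacterial L19, had 85.6 and 92.6 CPM with siOGT1, against 103 and 114 CPM with Scr (log2 fold change -0.28 ± 0.09, adjusted p = 0.0458), with both siOGT1 samples lower. The MRPL19 call was lost with RLE, upper-quartile and library-size scaling (adjusted p = 0.0507, 0.0615 and 0.0706, edgeR). Of the 4 rises only that of MRPL18 remained without Scr replicate 1, without Scr replicate 2 and without siOGT1 replicate 2, each with DMSO. Their adjusted p then ran from 0.064 to 0.233 for MRPS34, 0.0635 to 0.125 for MRPL55 and 0.0755 to 0.343 for MRPL34. MRPL19 lost its call with most single libraries left out, at -0.21 with an adjusted p of 0.347 without Scr replicate 2 with DMSO.

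OSMI2 cells under DMSO had lower values than Scr cells for all 76 members. Of these, 21 fell, 0 rose and 55 did not pass, beside 2.49% and 0.491% of all tested genes that fell and rose. Both OSMI2 samples lay under both Scr samples for 70 members, but the share of all tested genes for which this held was not counted. Over the members the median was -0.28 and the lowest value was -0.54. The median was -0.01 over all tested genes and -0.07 over those averaging 8 CPM or more. At an unadjusted p under 0.05 there were 60 members, and DESeq2 called 32 falls. For neither of these was the share of all tested genes counted. The values were positive for 3 members with upper-quartile scaling and for 5 with library sizes alone, which gave 8 and 7 falls. Over all tested genes the falls numbered 593 with TMM, 221 with upper quartiles and 181 with library sizes alone. The members' median was 0.27 under that of all tested genes under each of the 4 scalings. Scaling moves all genes nearly alike, so this gap could hardly change and does not test the scaling. A shift in this direction was not limited to the members. Values were below 0 for 70 of 75 nuclear oxidative phosphorylation genes, with 12 falls and a median of -0.21, and for 79 of 86 genes of the cytosolic ribosome, with 6 falls and a median of -0.15. They were also below 0 for 19 of 20 mitochondrial tRNA synthetases (median -0.21), 14 of 15 translation factors (median -0.18), 20 of 23 assembly factors (median -0.16) and all 14 genes of mitochondrial transcription and its regulators (median -0.23). The differences between these lists and the members were not tested.

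The share of all tested genes that fell was not counted for the fits below. Where a library was left out, its group held 1 sample and every gene was harder to call. The number of member falls changed with single libraries. It was 3 without OSMI2 replicate 1, 0 without OSMI2 replicate 2, 13 without Scr replicate 1 and 0 without Scr replicate 2, all with DMSO. Same-numbered samples of Scr, siOGT1 and siOGT2 deviated together within an agent, with r of 0.603 to 0.734 over genes whose log2 CPM averaged 3 or more. With the replicate number as a block within each agent there were 53 falls. Between OSMI2 and those 3 arms under DMSO, r was 0.0473 to 0.103. The part of sample handling in the OSMI2 result was not tested.

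Large-subunit members with a bacterial counterpart held 13 of the 21 falls, out of 29. The mitochondria-specific large-subunit members held 2 of 21, the small-subunit members with a counterpart 6 of 15, and the mitochondria-specific small-subunit members 0 of 10. Medians were -0.31, -0.24, -0.29 and -0.23 in that order, and the difference between these groups was not tested. MRPS28, a small-subunit protein, had 15.3 and 14.5 CPM with OSMI2, against 21.7 and 21.7 CPM with Scr (log2 fold change -0.54 ± 0.10, adjusted p = 0.00738). MRPL15, the counterpart of bacterial L15, had 61.0 and 58.7 CPM with OSMI2, against 79.5 and 89.8 CPM with Scr (log2 fold change -0.50 ± 0.11, adjusted p = 0.0156). MRPS18C, the S18 paralog that takes the bacterial position, had 22.3 and 23.6 CPM with OSMI2, against 31.4 and 33.2 CPM with Scr (log2 fold change -0.49 ± 0.12, adjusted p = 0.0291). The groups of these genes did not overlap. MRPL36, the counterpart of bacterial L36, had 26.1 and 28.8 CPM with OSMI2, against 35.8 and 40.8 CPM with Scr (log2 fold change -0.48 ± 0.11, adjusted p = 0.0178). Upper-quartile and library-size scaling took the call from MRPS18C (adjusted p = 0.0673 and 0.0821, edgeR) and MRPL36 (adjusted p = 0.0517 and 0.0539, edgeR). Without Scr replicate 2 with DMSO the values were -0.55 with an adjusted p of 0.118 for MRPS28, -0.42 with an adjusted p of 0.285 for MRPL15, -0.46 with an adjusted p of 0.311 for MRPS18C and -0.39 with an adjusted p of 0.314 for MRPL36. Without OSMI2 replicate 2 with DMSO they were -0.51 with an adjusted p of 0.132 for MRPS28, -0.48 with an adjusted p of 0.185 for MRPL15, -0.54 with an adjusted p of 0.178 for MRPS18C and -0.56 with an adjusted p of 0.098 for MRPL36. Without OSMI2 replicate 1 with DMSO they were -0.53 with an adjusted p of 0.0839 for MRPL15, -0.45 with an adjusted p of 0.192 for MRPS18C and -0.41 with an adjusted p of 0.161 for MRPL36, and without Scr replicate 1 with DMSO -0.54 with an adjusted p of 0.0759 for MRPS18C. MRPL38, by contrast, had 3.78 and 4.32 CPM with OSMI2, against 4.48 and 3.82 CPM with Scr, and these overlap. Across the 76 members the OSMI2 value had a Spearman rho of -0.34 with gene span and 0.09 with exonic length, as a description. With gene span, the siOGT1 and siOGT2 values against Scr under DMSO had a rho of -0.375 and -0.156.

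The 3 comparisons added after values were seen set OSMI2 against the other arms. Against siOGT1 under DMSO 51 members fell and 1 rose, beside 10.3% and 7.11% of all tested genes, with a median of -0.37. Against siOGT2 26 fell and 1 rose, beside 4.32% and 2.52%, with a median of -0.26. With AT7519, OSMI2 cells had 46 falls and 0 rises against Scr cells, beside 9.01% and 5.18%, with a median of -0.32. Those under DMSO share the OSMI2 samples with the comparison above, while the one with AT7519 shares no sample with it. The falls against siOGT1 were fewer without OSMI2 replicate 2 and without siOGT1 replicate 2. Against siOGT2 they were 8 and 3 without OSMI2 replicates 1 and 2, and 12 and 1 without siOGT2 replicates 1 and 2. With AT7519 they were 23 without OSMI2 replicate 2 and 30 without Scr replicate 1. MRPL44, which carries a ribonuclease III fold, had the lowest value there, with 32.3 and 31.8 CPM in OSMI2 cells, against 52.9 and 47.4 CPM in Scr cells (log2 fold change -0.65 ± 0.09, adjusted p = 0.000123). MRPL36 was the lowest against siOGT2 (-0.62 ± 0.11), with 26.1 and 28.8 CPM in OSMI2 cells, against 39.0 and 45.6 CPM in siOGT2 cells. Without siOGT2 replicate 2 with DMSO it was -0.51 with an adjusted p of 0.0569.

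Other genes of mitochondrial translation were followed for AT7519 in Scr cells. All 5 mitochondrial ribosomal proteins with other names rose, with a median of 0.56. They included AURKAIP1, a small-subunit protein with 188 and 159 CPM with AT7519, against 113 and 105 CPM with DMSO (log2 fold change 0.67 ± 0.09, adjusted p = 2.05e-06). CHCHD1 (0.60 ± 0.09) and PTCD3 (0.33 ± 0.07), also of the small subunit, rose as well. With library sizes alone PTCD3 lost its call (0.08 with an adjusted p of 0.333). Of 15 translation factors 9 rose and 2 fell, with a median of 0.36. TUFM, the mitochondrial elongation factor Tu, had 448 and 444 CPM with AT7519, against 272 and 261 CPM with DMSO (log2 fold change 0.74 ± 0.07, adjusted p = 5.97e-08). MTRFR, which rescues stalled ribosomes, had 13.5 and 11.2 CPM with AT7519, against 32.5 and 33.7 CPM with DMSO (log2 fold change -1.43 ± 0.12, adjusted p = 8.06e-09). SLIRP, which stabilises mitochondrial mRNAs with LRPPRC, rose by 0.66 ± 0.10.

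Assembly factors were split, with 7 of 23 raised and 9 lowered and a median of -0.04. METTL17, an assembly factor of the small subunit, rose by 0.67 ± 0.09. GTPBP10, a GTPase of large-subunit assembly, had 45.2 and 44.7 CPM with AT7519, against 75.3 and 97.7 CPM with DMSO (log2 fold change -0.94 ± 0.12, adjusted p = 2.74e-06), and NSUN4, which methylates the small rRNA, had a log2 fold change of -0.58 ± 0.08. Of 20 mitochondrial tRNA synthetases 12 rose and 2 fell. IARS2, which charges isoleucine tRNA, rose by 0.50 ± 0.08. PARS2, which charges proline tRNA, had 3.52 and 1.95 CPM with AT7519, against 10.4 and 10.1 CPM with DMSO (log2 fold change -1.92 ± 0.22, adjusted p = 7.2e-07).

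Genes for mitochondrial transcription and its regulators went mostly the other way, with 1 of 14 raised, 9 lowered and a median of -0.54. NRF1, a transcription factor for nuclear genes of mitochondrial proteins, had 5.73 and 6.35 CPM with AT7519, against 16.8 and 17.6 CPM with DMSO (log2 fold change -1.51 ± 0.14, adjusted p = 3.85e-08). PPARGC1B, a coactivator of such genes, had 5.05 and 6.13 CPM with AT7519, against 13.8 and 15.1 CPM with DMSO (log2 fold change -1.37 ± 0.15, adjusted p = 3.42e-07). GABPB1, a subunit of the ETS-family complex GABP, had 26.9 and 22.3 CPM with AT7519, against 43.3 and 42.0 CPM with DMSO (log2 fold change -0.79 ± 0.12, adjusted p = 1.66e-05). The groups did not overlap for any of the 3. For scale, 83 of 86 tested genes of the cytosolic ribosome rose, with a median of 0.77, and 73 of 75 nuclear genes of oxidative phosphorylation rose, with a median of 0.68. The differences between these lists and the members were not tested.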

How the data were processed

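RNA of 16 LNCaP samples was analysed. The table of raw counts was deposited by the authors, as whole numbers. Tools in the submitters' processing notes are STAR, HTSeq and DESeq2, and builds are hg19 and GRCh37. The strand setting was not stated. A second deposited table holds the authors' normalized signal, which equals the count over a size factor per sample (largest relative deviation 5.5e-10), and was not tested.

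Gene IDs were named through a gene table by ID without version (55528 of 60252). Exon overlaps came from GENCODE v29, a GRCh38 annotation, for which no coordinate is printed. All 16 samples entered one edgeR fit (version 4.0.16 in R 4.3.3; filterByExpr on 8 groups, 23830 genes kept, TMM, robust glmQLFit, 8 residual degrees of freedom, glmQLFTest, two-sided), and each SE is the size of the log2 fold change divided by the root of its F statistic. P-values were adjusted over all tested genes. The first 10 comparisons were listed at the start and 3 were added after values were seen. Results were recomputed with RLE, upper-quartile or library-size scaling, without the low-count filter, with DESeq2 1.42.0, fits of the compared groups alone, replicate blocks and each sample left out. The fit was tested on simulated data.

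Members and gene lists were chosen with earlier results of these data known. Named members were the 8 highest and 8 lowest called for AT7519 in Scr, the 3 of each for the other arms and for interactions, the 5 of each for the OGT arms, the members called with both siRNAs, the 3 S18 paralogs, the highest and lowest by level, those at the count threshold and OGT. From each other list, up to 3 genes with the smallest adjusted p for AT7519 in Scr were named. A gene that this rule names is not reported here. MRPL51, MRPS11, MRPL2 and MRPL49 were chosen after their values were seen. Promoter windows were those of RefSeq on GRCh38.p14. Sequencing depth, 40216911 to 147019364 counts, limits low members most.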

Additional observations from a re-analysis of the deposited data

How the results depend on the processing

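Of 626 counts of rises and falls under an alternative, 537 lay within 1.5 times the reported count. With library sizes alone the rises for AT7519 were 28, 21, 30 and 26 (Scr, siOGT1, siOGT2, OSMI2), the falls 8, 6, 5 and 11, the siOGT1 rises and falls against Scr 8 and 1, the siOGT2 rises 1, the OSMI2 falls 7, and those with AT7519 29. Upper-quartile scaling gave OSMI2 falls of 8, 29 with AT7519, 0 for AT7519 in siOGT1, siOGT2 and OSMI2 cells, 1 siOGT1 fall and 1 siOGT2 rise. RLE scaling gave 0 AT7519 falls in both siRNA arms and 1 siOGT1 fall. Without a filter and with DESeq2 there were also 0 falls in both siRNA arms, and DESeq2 gave 32 OSMI2 falls. Fits of the compared groups alone gave 0 falls in siOGT2 cells and 1 siOGT2 rise. Library-size values of MRPS18A, MRPS18B and MRPS18C reversed (-0.13, -0.18, -0.0487). The cause of these changes was not tested. Except for the reported fit and the scalings, calls over all tested genes were not counted for the fits in this section.

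Leaving out 1 library gave AT7519 falls of 0 to 1 in siOGT1, 0 to 1 in siOGT2 and 3 to 5 in OSMI2 cells, siOGT1 rises of 1 to 5 and falls of 1 to 2, OSMI2 falls of 0 to 22 against Scr, 24 to 52 against siOGT1, 1 to 27 against siOGT2 (rises 0 to 1) and 23 to 59 with AT7519. AT7519 rises ran from 45 to 55, 40 to 56, 46 to 59 and 36 to 49. Where that left an arm with 1 sample, it was assumed to vary like the other groups.

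Nothing in the labels says that replicate numbers pair samples. Among Scr and siRNA groups, r between same-numbered deviations was 0.0689 to 0.191 within an agent and -0.0524 to 0.011 between agents over all tested genes, and 0.603 to 0.734 and -0.135 to 0.0402 over genes averaging a log2 CPM of 3 or more, a hint of pairing within an agent that 2 replicates cannot settle. Over those genes the OSMI2 groups differed from this: r was 0.434 between the AT7519 and DMSO samples of OSMI2. It was 0.0473 to 0.178 between OSMI2 and the other arms within an agent. The replicate block gave 27 OSMI2 falls and changed no call of a named member. A replicate block within each agent gave 53 OSMI2 falls, 49 against siOGT2, 9 rises and 4 falls for siOGT1, 1 rise and 3 falls for siOGT2, and 0 AT7519 falls in both siRNA arms, where MRPS17 lost its calls; it also called MRPS18C higher in Scr. For siOGT2, where r between its AT7519 and DMSO samples was -0.135 over those genes, a crossed pairing gave 60 rises and 1 fall. Low counts limit MRPL53, at about 1 to 2 CPM.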
